A study of Mus musculus with 4 samples.

Results

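The interleukin-1 (IL-1) family was examined through 10 genes: the cytokines Il1a, Il1b, Il18 and Il33, the receptor antagonist Il1rn, and the receptor genes Il1r1, Il1r2, Il1rl1, Il18r1 and Il1rap. They were taken by symbol from the 54752 genes of a count table of mouse aortic grafts. All 10 were present, and all 10 had enough counts to be tested, as had 16498 genes in all. RNA depleted of ribosomal RNA had been sequenced from aortic graft tissue taken 4 weeks after transplantation, in a group named ALLO (allografts, going by the series title) and a group named ISO, a name that the labels leave unexplained. Each group had 2 libraries. The labels name no strain, sex, age, donor, recipient or drug for either group. Beyond a transplanted aorta and the same time point, they state nothing about the grafts that the groups share.

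IL-1α and IL-1β bind the receptor encoded by Il1r1, which signals only after it recruits the accessory protein encoded by Il1rap. Il1rn encodes an antagonist that occupies the receptor without recruiting that partner, and Il1r2 encodes a decoy that binds IL-1 but lacks the intracellular signalling domain. IL-18 signals through Il18r1 with Il18rap, and IL-33 through Il1rl1 (also called ST2) with Il1rap. IL-1β and IL-18 are made as precursors that caspase-1 cleaves in an inflammasome, whereas IL-33 is held in the nucleus of stromal and endothelial cells and is released when they are damaged. All of these receptor pairs signal through the adaptor MyD88 and the IRAK kinases, and IL-1 is a well known activator of vascular smooth muscle and endothelium.

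Libraries held 17532344 to 20194854 counts. In sex-linked genes ISO replicate 1 stood apart from the other libraries. Xist, expressed from an inactive X chromosome, had 10647 counts in it and at most 8 elsewhere, and Y-linked Ddx3y had 0 in it and at least 2105 elsewhere. By these genes ISO replicate 1 came from female tissue and every other library from male tissue. ISO was thus mixed in sex and ALLO was not, and the ISO libraries came from different animals. The part of sex in the gaps between the ISO libraries was not tested. Summed marker levels in ISO replicate 1 were 96.9-fold those of ISO replicate 2 for B cells, 9.40-fold for neutrophils, 3.82-fold for mesothelium, 3.57-fold for macrophages and 3.03-fold for T cells. These were the largest ratios of the 14 marker lists. The ratio was 2.11 for dendritic cells, but 0.323 for NK cells, 0.969 for regulatory T cells and 0.992 for endothelium. The B cell sum of ISO replicate 2 was 0.362 CPM, with 2 of 4 markers at 0 counts, so the B cell ratio is poorly known. Member values are therefore given with and without ISO replicate 1. Separate animals are not stated in the labels, and for ALLO these genes do not show them. Each p-value rests on the spread between 4 samples, and part of that spread may be technical. Levels are CPM (TMM-scaled counts relative to library size), except where they are given per kilobase of exon. That length joins all annotated exons of a gene, so ratios and ranks of genes per kilobase depend on it. In whole tissue, fewer cells of a type and less RNA per cell cannot be told apart.

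The start regions of 4 members are shown, among them the member with the highest mean level in ALLO (Il1b) and the member whose groups overlapped (Il1r1). They include all 3 windows of the members with TATAAA close to the start, so they do not represent the family. The windows of Il1r2 and Il1rap, not shown, hold no match to the motifs listed here. Each is the 250 bases before a transcription start in RefSeq on GRCm38.p6, the assembly of mm10, written 5′ to 3′ on the gene's own strand. Capitals mark matches on either strand to TATAAA (the box bound by TBP), GAGGAA (the core bound by PU.1), TGANTCA (AP-1), TTNCNNAA (C/EBP) or the NF-kappaB consensus. The 4 windows shown hold no NF-kappaB match, but the other Il1r1 window and 1 of the 3 Il1rn windows do. For Il33 the start with a TATAAA close to it was chosen, and in its other window TATAAA begins 203 bases before the start.
Il1a, chr2:129309973-129310222, minus strand: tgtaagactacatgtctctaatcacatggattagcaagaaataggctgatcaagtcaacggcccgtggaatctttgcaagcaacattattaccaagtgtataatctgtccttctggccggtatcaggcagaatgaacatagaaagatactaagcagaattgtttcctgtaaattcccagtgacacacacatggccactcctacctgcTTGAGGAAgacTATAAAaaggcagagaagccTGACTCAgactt
Il1b, chr2:129371140-129371389, minus strand: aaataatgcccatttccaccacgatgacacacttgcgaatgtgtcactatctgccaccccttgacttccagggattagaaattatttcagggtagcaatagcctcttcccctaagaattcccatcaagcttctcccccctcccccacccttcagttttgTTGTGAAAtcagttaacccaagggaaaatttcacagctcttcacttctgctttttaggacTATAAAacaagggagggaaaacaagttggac
Il33, the second of its 2 starts, chr19:29945540-29945789, plus strand: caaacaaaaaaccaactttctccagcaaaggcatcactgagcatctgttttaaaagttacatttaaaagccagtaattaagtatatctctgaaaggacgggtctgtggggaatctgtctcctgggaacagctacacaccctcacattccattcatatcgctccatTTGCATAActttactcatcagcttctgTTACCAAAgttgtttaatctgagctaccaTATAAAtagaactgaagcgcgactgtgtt
Il1r1, the first of its 2 starts, chr1:40224830-40225079, plus strand: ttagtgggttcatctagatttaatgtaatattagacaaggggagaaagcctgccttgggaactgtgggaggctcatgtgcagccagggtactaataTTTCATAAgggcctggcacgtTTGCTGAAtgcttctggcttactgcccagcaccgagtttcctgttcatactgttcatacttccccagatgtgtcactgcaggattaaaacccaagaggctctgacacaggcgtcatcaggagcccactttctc
TATAAA on the gene's strand began 32 bases before the start of Il1a, 31 before that of Il1b and 29 before this start of Il33. A TATAAA on the gene's strand beginning 20 to 40 bases before the start was held by 3 of the 17 windows of the members, and by 1.99% of all 32851 windows of 250 bases. Anywhere in the window and on either strand, the shares of all windows were 12.4% for TATAAA, 23.3% for GAGGAA, 6.75% for TGANTCA, 36.8% for TTNCNNAA and 4.65% for NF-kappaB. In Il1a the GAGGAA match lies inside a TTNCNNAA match on the other strand. The Il1r1 window held only TTNCNNAA matches, starting 154 and 133 bases before the start. Such matches describe letters, not bound sites.

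Across the family, 4 of the 10 members rose in ALLO by edgeR's quasi-likelihood test at a Benjamini-Hochberg adjusted p under 0.05: Il18, Il33, Il1rl1 and Il18r1. Of all genes tested, 18.4% rose and 33.1% passed in either direction. The IL-1 cytokines themselves, their antagonist and their receptors (Il1a, Il1b, Il1rn, Il1r1, Il1r2 and Il1rap) did not pass. No member fell, where 14.8% of all genes tested did. With limma-voom 7 members were higher, where 18.2% of all genes were. With it and with the Wald test of DESeq2 there were also 0 lower members, where 16.1% and 17.9% of all genes were lower. In 9 of the 10 members both ALLO libraries lay above both ISO libraries, which was so for 37.1% of all genes tested. The median log2 change of the members was 2.80, and that of all genes tested 0.03.

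**Figure D1:**
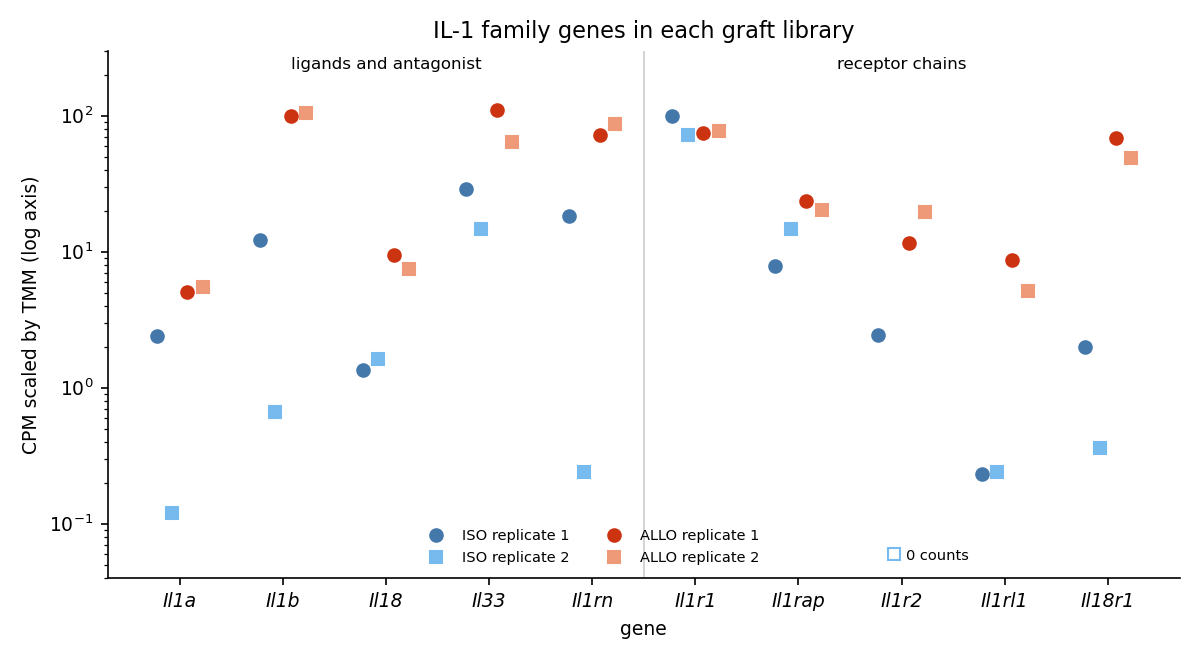
Scaled CPM of the 10 members in each library, on a log scale, with 1 point per library and 0 drawn at the bottom of the axis. The ALLO points lie above the ISO points in 9 members, overlap in Il1r1, and the ISO points lie far apart in Il1a, Il1b, Il1rn, Il1r2 and Il18r1.

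Among the ligands, Il1b (ENSMUSG00000027398.13, chr2:129364570-129371139, minus strand), the main secreted IL-1 of activated myeloid cells, had 207 and 11 counts in ISO replicates 1 and 2, and 1948 and 2305 in ALLO replicates 1 and 2. On the CPM scale these were 12.1, 0.664, 100.1 and 104.6. The ALLO libraries were close to each other and above both ISO libraries, while the ISO libraries differed 18.2-fold (95% counting interval 7.46 to 46.8). The log2 change was 4.00 ± 1.15 (SE, n = 2 per group) with an edgeR adjusted p of 0.0508, just outside the threshold. Without ISO replicate 1 it was 7.24 (adjusted p = 8.99e-05), and without ISO replicate 2 it was 3.06 (adjusted p = 0.000904). Over the 15 alternatives its adjusted p ran from 8.99e-05 to 0.104 and its direction was the same in each. Leaving out a library leaves its group with 1, which is then taken to vary as the other group does. Counting intervals cover counting error only.

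Il1a (ENSMUSG00000027399.1, chr2:129299610-129309972, minus strand), an IL-1 that acts as an alarm signal from damaged cells, was far scarcer, with 41 and 2 counts in ISO and 99 and 122 in ALLO. The ALLO values were 5.09 and 5.54 CPM, above the ISO values of 2.40 and 0.121 CPM. Its log2 change of 2.07 ± 1.09 did not pass (edgeR adjusted p = 0.210), and the mean of ALLO was 2.22-fold the level of ISO replicate 1. Without ISO replicate 1 the log2 change was 5.37 (adjusted p = 0.00398), and without ISO replicate 2 it was 1.12 (adjusted p = 0.265). The antisense transcript Gm14023 shares 11.2% of the exonic bases of Il1a, and had 2, 6, 15 and 10 counts. Without knowledge of strand, its reads and those of Il1a cannot be told apart. Per kilobase, the ratio of Il1a to Il1b was 0.191 and 0.176 in ISO and 0.0491 and 0.0511 in ALLO. The ratio of ISO replicate 2 rests on 2 counts of Il1a and 11 of Il1b, so it is poorly known. The groups of this ratio did not overlap, with an exact two-sided permutation p of 0.333, the smallest that 2 against 2 allows.

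Il18 (ENSMUSG00000039217.13, chr9:50554827-50581840, plus strand), which drives interferon-γ production by T and NK cells, had 23 and 27 counts in ISO and 183 and 164 in ALLO. Its levels were 1.34 and 1.63 CPM in ISO and 9.40 and 7.44 CPM in ALLO, with no overlap and little spread within a group. The ISO libraries differed less here than in the other IL-1 ligands, with a ratio of 0.825 (95% counting interval 0.351 to 1.93). Il18 rose by 2.50 ± 0.39 in log2 units (edgeR adjusted p = 0.0106), and passed in all 15 alternatives. Leaving out ISO replicate 1 gave a log2 change of 2.35, and leaving out ISO replicate 2 gave 2.62.

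Il33 (ENSMUSG00000024810.16, chr19:29925114-29960718, plus strand), the nuclear alarmin, had 493 and 244 counts in ISO and 2134 and 1411 in ALLO. These were 28.8 and 14.7 CPM in ISO and 109.7 and 64.0 CPM in ALLO. All ALLO values exceeded all ISO values, but within each group the libraries differed by more than those of Il18. Its log2 change was 2.00 ± 0.43 (edgeR adjusted p = 0.0236). The call rested on ALLO replicate 1, without which the log2 change was 1.59 and the adjusted p 0.0667. Without ISO replicate 1 or 2 it still passed, at 2.54 and 1.57.

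The antagonist Il1rn (ENSMUSG00000026981.15, chr2:24336853-24351494, plus strand) had 311 and 4 counts in ISO and 1397 and 1907 in ALLO. On the CPM scale these were 18.2, 0.241, 71.8 and 86.6. Its ISO libraries differed 75.3-fold (95% counting interval 20.6 to 629), the widest measurable gap among the members. The log2 change of 3.10 ± 1.42 did not pass (edgeR adjusted p = 0.156). Without ISO replicate 1 it was 8.31 (adjusted p = 8.99e-05) and without ISO replicate 2 it was 2.10 (adjusted p = 0.00408). Il1rn encodes secreted and intracellular forms, which the counts per gene join. Per kilobase, Il1rn was 0.518 and 0.125 of Il1b in ISO and 0.247 and 0.285 of it in ALLO, so the ALLO ratios lay between the ISO ratios. That of ISO replicate 2 rests on 4 counts of Il1rn.

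Turning to the receptors, Il1r1 (ENSMUSG00000026072.12, chr1:40225080-40317257, plus strand), the signalling IL-1 receptor, was the member whose groups overlapped. It had 1714 and 1185 counts in ISO and 1463 and 1693 in ALLO, or 100.2 and 71.5 CPM in ISO and 75.2 and 76.8 CPM in ALLO. Both ALLO values lay between the ISO values. Its log2 change of -0.18 ± 0.22 did not pass (edgeR adjusted p = 0.590), and was 0.02 when scaled by library size only and 0.07 without ISO replicate 1, so no direction can be given. Under that scaling the median log2 change over all genes was 0.19 higher.

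The decoy receptor gene Il1r2 (ENSMUSG00000026073.13, chr1:40074079-40125231, plus strand) had 42 and 0 counts in ISO and 225 and 429 in ALLO, or 2.46 and 0 CPM in ISO and 11.6 and 19.5 CPM in ALLO. By summed counts ALLO was 12.6-fold ISO (95% counting interval 8.13 to 20.7), and 6.32-fold ISO replicate 1 alone. The fitted log2 change was 3.65 ± 1.31 (edgeR adjusted p = 0.0903), which did not pass. Without ISO replicate 2 it was 2.64 (adjusted p = 0.0105), and without ISO replicate 1 it also passed (adjusted p = 0.000237). Against ISO replicate 2 alone, taken at a floor of 6 counts, ALLO was at least 42.9-fold higher. Per kilobase, the decoy reached 0.0817 and 0 of the level of Il1r1 in ISO and 0.513 and 0.845 of it in ALLO, with no overlap. As the ratio of ISO replicate 2 was 0, no permutation test was run on it.

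Il1rl1 (ENSMUSG00000026069.15, chr1:40429570-40465415, plus strand), the IL-33 receptor gene, went from 4 counts in each ISO library to 168 and 113 in ALLO. These were 0.234 and 0.241 CPM in ISO and 8.63 and 5.13 CPM in ALLO. It rose by 4.82 ± 0.58 in log2 units (edgeR adjusted p = 0.00574), and passed in all 15 alternatives. The log2 change was 4.78 when ISO replicate 1 was left out and 4.82 when ISO replicate 2 was. With so few ISO counts the size is uncertain: the ratio of summed counts was 28.5 with a 95% counting interval of 10.8 to 106. Il1rl1 makes a membrane receptor and a soluble one, which counts per gene do not separate. The level of Il33 per kilobase was 294 and 146 times that of Il1rl1 in ISO and 30.3 and 29.8 times in ALLO. The receptor thus gained on its ligand (exact two-sided permutation p = 0.333, the smallest that 2 against 2 allows), while both genes passed the edgeR test. The ISO ratios rest on 4 counts of Il1rl1 each.

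Il18r1 (ENSMUSG00000026070.15, chr1:40465552-40500854, plus strand), the ligand-binding chain for IL-18, had 34 and 6 counts in ISO and 1326 and 1079 in ALLO. On the CPM scale these were 1.99 and 0.362 in ISO and 68.1 and 49.0 in ALLO. It had the largest fitted change of the 10 members in the comparison of all 4 libraries, a rise of 5.62 ± 0.74 in log2 units (edgeR adjusted p = 0.00706), and it passed in all 15 alternatives. The ratio of summed counts was 48.8 (95% counting interval 31.4 to 80.1), and ALLO was 29.5-fold ISO replicate 1 alone. Its ISO libraries differed 5.49-fold (95% counting interval 1.59 to 29.2), and the size of the change moved with them. It was 7.30 in log2 units (157-fold) without ISO replicate 1 and 4.85 (28.9-fold) without ISO replicate 2.

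Il1rap (ENSMUSG00000022514.14, chr16:26581704-26730117, plus strand), the accessory chain shared by the IL-1 and IL-33 receptors, had 135 and 244 counts in ISO and 461 and 448 in ALLO. Its levels were 7.89 and 14.7 CPM in ISO and 23.7 and 20.3 CPM in ALLO. The groups did not overlap, but the log2 change of 0.96 ± 0.37 did not pass (edgeR adjusted p = 0.104). Here ISO replicate 1 was the lower of the ISO libraries, at 0.536 of ISO replicate 2 (95% counting interval 0.395 to 0.732), opposite to Il1a, Il1b, Il1rn and Il18r1. Without ISO replicate 2 the log2 change was 1.46 (adjusted p = 0.0404), and without ISO replicate 1 it was 0.57, short of the threshold.

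The gap between the ISO libraries differed among the members. Il1a, Il1b, Il1rn, Il1r2 and Il18r1, 5 of the 10, had a level in ISO replicate 1 at least 4-fold that of ISO replicate 2 after 0.1 CPM was added to both, which was so for 3.71% of all genes tested. Without ISO replicate 1, 8 members passed as higher, where 14.0% of all genes did, and without ISO replicate 2 there were also 8, where 11.7% did. Each of these fits set ALLO against 1 ISO library, so the gap between the ISO libraries was no longer part of the spread. Passing in both therefore does not show that a change holds beyond that gap. Without ALLO replicate 1 the count was 3, with 11.8% of all genes higher, and without ALLO replicate 2 it was 4, with 13.8%.

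**Figure D2:**
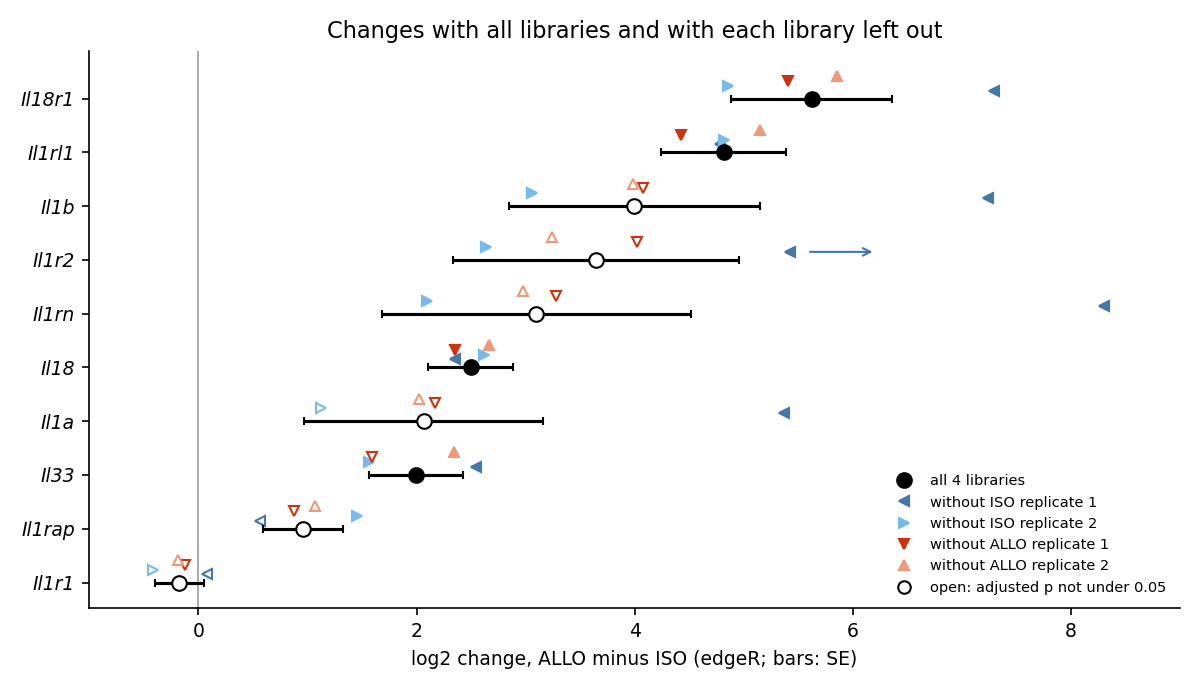
Log2 change (ALLO minus ISO) of the 10 members from all 4 libraries, with SE, and with each library left out in turn. The arrow marks a lower bound for Il1r2, which has 0 counts in the only ISO library left. Values of Il1a, Il1b, Il1rn, Il1r2 and Il18r1 move most without ISO replicate 1, and those of Il18, Il1rl1 and Il1r1 move little.

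Compared per kilobase of exon, the order of the levels differed between the groups. In ISO, Il1r1 was first at a mean of 13.5 CPM per kilobase and Il33 was next at 7.55, and the other 8 members were at 3.35 (Il1b) or below, down to 0.0345 for Il1rl1. In that order Il33 overlapped Il1b, Il1b overlapped Il1rn and Il1rn overlapped Il18, and among the lower members Il1rap overlapped Il1r2, Il1r2 overlapped Il1a and Il1a overlapped Il18r1. Il18 did not overlap Il1rap, nor Il18r1 Il1rl1. In ALLO, Il1b was first at 53.7, followed by Il33 at 30.1, Il1rn at 14.3, Il18r1 at 12.2 and Il1r1 at 11.9. Il1rn overlapped Il18r1 and Il18r1 overlapped Il1r1, as did Il18 (8.17) and Il1r2 (8.13). Il1a (2.69), Il1rap (1.94) and Il1rl1 (0.998) stood last.

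4 of the 5 receptor members lie side by side on chromosome 1, with Il1rl2 and Il18rap, in a stretch of 477.6 kb in which all 6 genes run on the plus strand. Il1rl1 and Il18r1 are 136 bases apart. Along the stretch the log2 changes were 3.65 for Il1r2 (not passing), -0.18 for Il1r1 (not passing), 4.04 for Il1rl2, 4.82 for Il1rl1, 5.62 for Il18r1 and 4.57 for Il18rap. Il1r1 thus lies between neighbours with far higher values, 7352 bases from Il1rl2, which rose. Reads that run past the end of one gene into the next were not separable in counts per gene.

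The rest of the family added regulators of the same cytokines. Of 11 other family genes 5 could be tested, and 4 of them rose, where 18.4% of all genes tested did. Il18bp, which encodes the secreted binding protein that neutralises IL-18, had 88 and 95 counts in ISO and 1663 and 1801 in ALLO, a 15.4-fold rise (edgeR adjusted p = 0.00214). Per kilobase it was 1.30 and 1.20 times Il18 in ISO and 3.10 and 3.74 times in ALLO, so the inhibitor gained on the cytokine in both ALLO libraries. The exact two-sided permutation p of this ratio was 0.333, the smallest that 2 against 2 allows. Il18rap, the signalling partner of Il18r1, had 32 and 21 counts in ISO and 837 and 703 in ALLO (23.8-fold, adjusted p = 0.00319). Il1rl2, the IL-36 receptor gene, had 28 and 14 counts in ISO and 419 and 430 in ALLO (16.4-fold, adjusted p = 0.00461). Sigirr, an inhibitory receptor of the family, rose 2.88-fold (adjusted p = 0.0316), a call lost without ISO replicate 2 (adjusted p = 0.104) or ALLO replicate 2 (adjusted p = 0.0913). The IL-36 ligand gene Il36g, with 64, 3, 119 and 42 counts, did not pass (adjusted p = 0.574), but did so without ISO replicate 1 (adjusted p = 0.0286). Il36a, Il36b, Il36rn, Il1f10, Il1rapl1 and Il1rapl2 had 0 counts in every library.

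Genes that mature and release the cytokines formed a second group, in which 11 of 16 tested genes rose and 1 fell. Among all genes tested, 18.4% rose and 14.8% fell. Casp1, the protease that cleaves pro-IL-1β and pro-IL-18, had 92 and 88 counts in ISO and 1161 and 954 in ALLO, a 9.62-fold rise (edgeR adjusted p = 0.00327). Gsdmd, whose cleaved product forms the pore through which IL-1β leaves the cell, had 271 and 252 counts in ISO and 2022 and 2406 in ALLO (6.86-fold). The inflammasome sensors Nlrp1b and Nlrc4 rose 43.8-fold and 17.9-fold. Nlrp1b has close copies beside it, so its reads may have been shared among them. Capn2, a calpain of the family linked to IL-1α processing, was the gene that fell, by 1.24 on the log2 scale, and it did not pass without ISO replicate 1 (adjusted p = 0.0570) or without ISO replicate 2 (adjusted p = 0.0559). With a library left out, the median log2 change of the group lay between 2.61 and 3.26.

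Of 19 signalling genes 6 rose and 2 fell, and their median log2 change was 0.68. The share that rose was 31.6%, against 18.4% of all genes tested. Irak4, the first kinase recruited by MyD88, rose 2.50-fold and Myd88 itself 2.45-fold, the latter not passing without ISO replicate 2 (adjusted p = 0.0557). Irak3, a brake on the same complex, rose 5.57-fold, from 227 and 133 counts in ISO to 1529 and 885 in ALLO. Chuk, an IkappaB kinase subunit, rose 1.81-fold. Peli2, a ubiquitin ligase of the pathway, fell by 1.46 on the log2 scale, and Tollip, an adaptor that restrains IRAK1, fell by 0.71. The number that rose was 3 of 19 without ISO replicate 1, ISO replicate 2 or ALLO replicate 1, and 8 without ALLO replicate 2, and neither Chuk nor Tollip passed when ISO replicate 1, ISO replicate 2 or ALLO replicate 1 was left out.

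Of 19 tested genes known to be induced by IL-1, among other stimuli, 12 rose and 7 did not pass, where 18.4% of all genes rose. Ccl2, a monocyte attractant, had 63 and 32 counts in ISO and 686 and 880 in ALLO (13.4-fold, edgeR adjusted p = 0.00460). The neutrophil attractant Cxcl5 had 2 and 0 counts in ISO and 201 and 383 in ALLO, a ratio of 237 by summed counts (95% counting interval 42.2 to 9392). Icam1, the endothelial adhesion molecule, rose 3.04-fold, and Tnfaip3, a feedback inhibitor of NF-kappaB, 7.72-fold. Il6, named after its values were seen, had 0 counts in both ISO libraries and 145 and 83 in ALLO, at least 15.7-fold higher against a floor of 6 counts per library. The median log2 change was 1.80, and the same with Il6 at that bound. Cxcl2 (238, 0, 315 and 296 counts) and Lcn2 (527, 22, 1037 and 1293), also named after their values were seen, did not pass, and like Il1b they were higher in ISO replicate 1 than in the other ISO library. Without ISO replicate 1 both passed (adjusted p = 0.000159 and 0.000117). With a library left out, the median log2 change of this list lay between 1.67 and 3.63.

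Of 6 genes induced by IL-18 or IL-33, only Ifng and Il4 could be tested. Ifng, the hallmark product of IL-18 acting on T and NK cells, had 0 counts in both ISO libraries and 63 and 57 in ALLO, at least 8.17-fold higher (edgeR adjusted p = 0.0108). Il4, a type 2 cytokine, had 66 and 32 counts in ISO and 24 and 32 in ALLO and did not pass (adjusted p = 0.200). Il5 and Il9 had 0 counts in every library, Il13 had 0, 2, 2 and 0, and Areg had 0, 0, 3 and 32. The type 2 cytokines that IL-33 is known to induce were thus at or near 0 counts, apart from Il4.

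**Figure D3:**
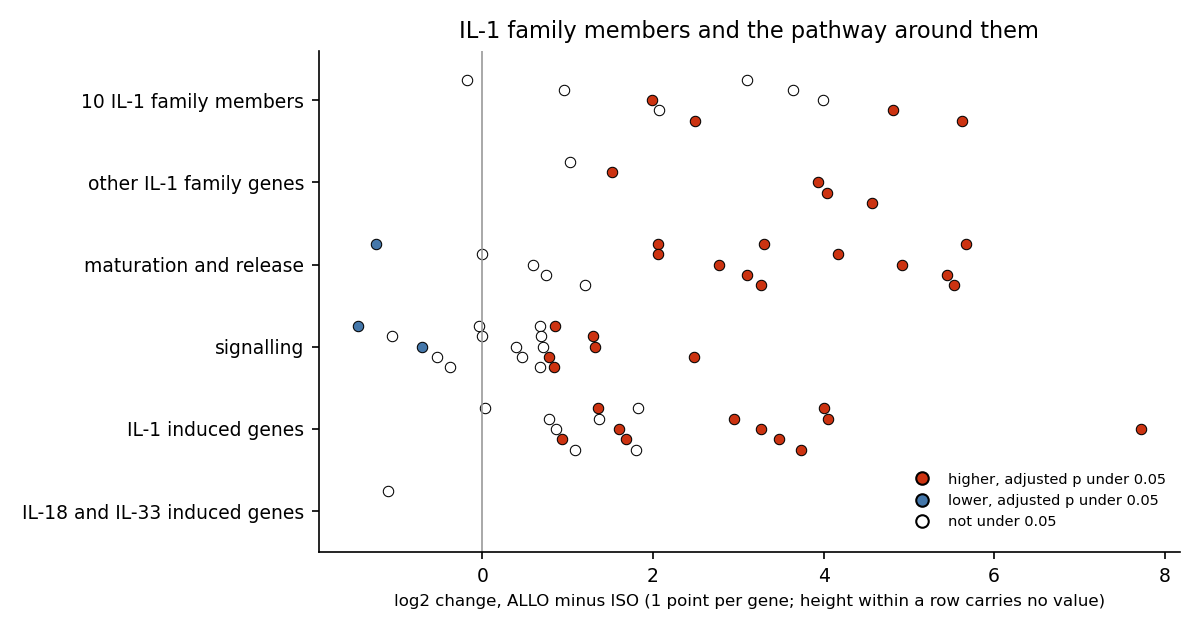
Log2 change (ALLO minus ISO) of the tested genes in the family and in the 5 lists around it, with 1 point per gene, filled where the adjusted p was under 0.05. Il6 and Ifng, at 0 counts in ISO, are left out. In the signalling list 6 genes are filled as higher and 2 as lower.

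Marker genes of several cell types moved with the members. Beside the counts that follow, 18.4% of all genes tested rose and 14.8% fell. Of 10 macrophage and monocyte markers 9 rose, with summed levels of 709 and 199 CPM in ISO and 8494 and 6079 CPM in ALLO. Il1b per 100 CPM of that sum was 1.71 and 0.334 in ISO and 1.18 and 1.72 in ALLO, and Il1rn 2.56 and 0.121 in ISO and 0.845 and 1.42 in ALLO. On this scale the groups of both genes overlapped. Il1a per 100 CPM of it, at 0.338 and 0.0607 in ISO and 0.0599 and 0.0911 in ALLO, overlapped too. Il18 did not: it was 0.190 and 0.819 in ISO and 0.111 and 0.122 in ALLO, lower in ALLO. Of 8 neutrophil markers tested 3 rose, with sums of 146 and 15.6 CPM in ISO and 341 and 168 CPM in ALLO. Ly6g, a defining neutrophil gene, had 6, 2, 32 and 9 counts. The neutrophil sum of ISO replicate 1 lay close to that of ALLO replicate 2. Il1b per 100 CPM of this sum was 8.27 and 4.26 in ISO and 29.3 and 62.3 in ALLO, and Il1rn was 12.4 and 1.55 in ISO and 21.03 and 51.5 in ALLO, both with no overlap. Of 8 dendritic cell markers 5 rose (44.9 and 21.3 CPM in ISO, 249 and 388 CPM in ALLO). The 4 B cell markers did not pass, with 35.1 and 0.362 CPM in ISO and 218 and 98.0 CPM in ALLO, and so had the same order of ISO libraries as Il1b.

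All 8 T cell markers rose, from sums of 8.42 and 2.78 CPM in ISO to 396 and 338 CPM in ALLO, as did all 5 NK cell markers, from 1.34 and 4.16 to 39.0 and 33.9 CPM. Il18r1 per 100 CPM of T cell markers was 23.6 and 13.0 in ISO and 17.2 and 14.5 in ALLO, so the groups overlapped on this scale. Il1rl1 is carried by mast cells and by some regulatory T cells. All 4 regulatory T cell markers rose (8.89 and 9.17 CPM in ISO, 87.7 and 92.4 CPM in ALLO), and 1 of 6 tested mast cell markers, Kit, rose (sums of 21.8 and 13.8 CPM in ISO and 48.0 and 48.9 CPM in ALLO). The mast cell genes Ms4a2 and Fcer1a had at most 4 counts in any library. Il1rl1 per 100 CPM of regulatory T cell markers was 2.63 and 2.63 in ISO and 9.84 and 5.55 in ALLO, and the ISO values rest on 4 counts each.

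Of the 8 fibroblast markers 2 fell and the others did not pass, with sums of 7081 and 7716 CPM in ISO and 9888 and 12783 CPM in ALLO. Il33 per 100 CPM of that sum was 0.407 and 0.191 in ISO and 1.11 and 0.501 in ALLO, so its groups did not overlap on this scale either. Nor did they per 100 CPM of endothelial markers, at 1.69 and 0.859 in ISO and 14.8 and 7.59 in ALLO. Of the 8 endothelial markers 4 fell (1702 and 1715 CPM in ISO, 742 and 844 CPM in ALLO), and all 6 smooth muscle markers fell (28261 and 28339 CPM in ISO, 1157 and 2402 CPM in ALLO). Of 4 epithelial genes 2 could be tested, and both rose: Cdh1 had 4 and 1 counts in ISO and 285 and 287 in ALLO (edgeR adjusted p = 0.00374), and Epcam had 2 and 0 in ISO and 401 and 138 in ALLO (edgeR adjusted p = 0.00906). Their list summed to 0.351 and 0.181 CPM in ISO and 35.3 and 19.5 CPM in ALLO, while the keratinocyte gene Krt5 had 0 counts in every library. The part of any of these cell types in the changes of the members was not tested.

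**Figure D4:**
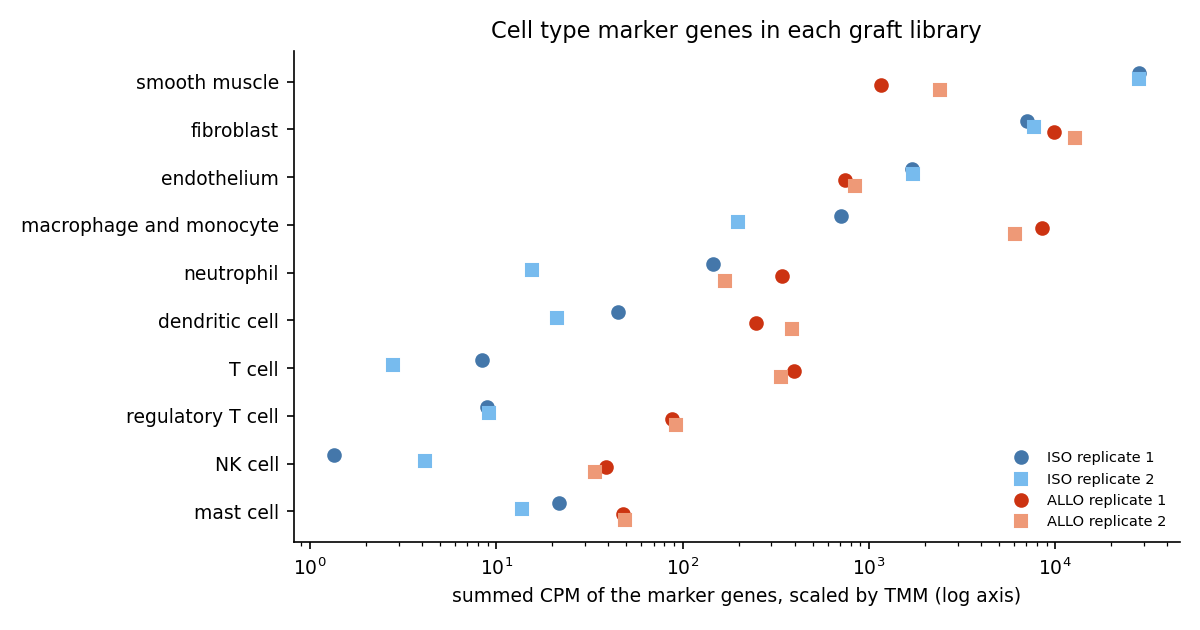
Summed CPM of marker genes per cell type in each library, on a log scale. Macrophage, T cell, regulatory T cell and NK cell sums are higher in both ALLO libraries, smooth muscle and endothelial sums are lower, and ISO replicate 1 exceeds ISO replicate 2 for macrophages, neutrophils, dendritic cells, T cells and mast cells but not for NK cells.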

How the data were processed

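A table of raw counts per gene was deposited, with a column for each of the 4 libraries beside gene coordinates and exonic lengths in bases. Per the submitters' processing notes, the tools included featureCounts of Subread 1.6.4, and DESeq2 1.30.0 under R 4.0.3, on mouse build mm10. For aligner, annotation release and strand setting, the record is: not given in the sources used here. Names came from GENCODE M21 for 54723 of 54752 gene IDs, and 29 had none.

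Genes were filtered with filterByExpr (minimum count 10), scaled by TMM and tested by edgeR 4.0.16 (quasi-likelihood fit and F test on group alone), with Benjamini-Hochberg adjustment over all 16498 genes tested and a threshold of 0.05. The common biological coefficient of variation was 0.324. Replicates correlated at 0.961 (ISO) and 0.950 (ALLO), and neither pair agreed within sampling noise. All 10 members are named, with up to 4 genes of each pathway list that had the smallest adjusted p in the direction most of its called genes took, and up to 2 of the opposite direction. The members and lists were chosen with earlier results of these data known. Low counts were mostly even, as when both mates of a pair are counted, so the floor for genes at 0 was 6 counts per library (3 pairs), and each counting interval used the counts divided by 2. The procedure was also run on simulated counts, drawn with the same spread for all genes. This does not cover genes whose ISO libraries differ widely, such as Il1b and Il1rn. Promoter windows came from RefSeq (GRCm38.p6), with 17 windows for the 10 members. R 4.3.3, limma 3.58.1, DESeq2 1.42.0 and Python 3.11.15 were used, and the 15 alternatives are described under the processing limits.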

Additional observations from a re-analysis of the deposited data

How the results depend on the processing

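Il18, Il1rl1 and Il18r1 passed in all 15 alternatives, and Il33 in all but the one without ALLO replicate 1. The number of members that rose was 4 with all libraries, 7 with limma-voom, and 3 to 8 with each library left out in turn, while the number of genes called was 5469 and 3603 to 4651. Il1b passed in 10 alternatives, among them DESeq2 size factors (adjusted p = 0.0456), library size only (0.0438), no filter (0.00932), limma-voom (0.0134), counts divided by 2 (0.0314) and the Wald test of DESeq2 (0.0265). Upper-quartile scaling, a mean count of 10 or more and a test against 1.5-fold gave 4 members, with 17.8%, 16.8% and 13.6% of all genes higher. DESeq2 size factors, library size only and the Wald test gave 5 (18.9%, 21.5% and 22.1%), and no filter and counts divided by 2 gave 6 (11.9% and 20.6%). The replicate numbers are shared between groups, and the deviations of same-numbered libraries correlated at 0.0974. With so few libraries this value cannot tell whether they were paired, and the labels do not say. With the replicate block, 5 members rose (Il1b added, log2 change 4.76, adjusted p = 0.0155) and 4873 genes were called, 16.8% of those tested as higher. Removing receptor-segment, mitochondrial and ribosomal RNA genes also gave 5 members (19.1%). At this depth the size of the Il1rl1 ratio is known only to between 10.8 and 106.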
